A study of Mus musculus with 2 samples.

Results

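The 10 genes described here encode splicing factors of the SR and Tra2 families whose own transcripts can take up a poison exon: Srsf1, Srsf2, Srsf3, Srsf4, Srsf5, Srsf6, Srsf7, Srsf11, Tra2a and Tra2b. The clusters described are those of the deposited UPF1 list that overlap the RefSeq GRCm38 locus of one of these genes, by at least 1 base and on the strand of the gene. A listed cluster need not be enriched over the input. There are 122 such clusters among the 123349 in the list, and each of the 10 genes holds at least 3 of them. UPF1 RNA was mapped by eCLIP, in which a protein is pulled down with the RNA it was crosslinked to and its reads are compared with an input library made without the pull-down. A UPF1 immunoprecipitate (IP) labelled UPF1_MOCK was compared with the input library, labelled UPF1_MOCK_INPUT. Both came from neural progenitor cells of mouse cortex with the genotype Upf2fl/fl, an allele of the UPF1 partner gene Upf2 that is flanked by loxP sites so that Cre can delete it. The labels do not explain the word MOCK and name no Cre, so whether Upf2 was intact is not stated. With 1 IP and 1 input there is no replicate, and no difference given here was tested between cultures.

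SR proteins bind exonic enhancers through RNA recognition motifs and recruit the splicing machinery through a domain rich in arginine and serine. They also hold their own amounts in check. A poison exon carries a premature stop codon, and when the protein is abundant it promotes the inclusion of that exon, or a related splicing event in the 3′ untranslated region, in its own transcript. The resulting RNA is a substrate of nonsense-mediated decay (NMD), in which the helicase UPF1 acts together with UPF2. UPF1 is also known to bind 3′ untranslated regions of ordinary mRNAs, so a UPF1 cluster on one of these genes need not lie on its poison isoform. The annotation used here gives only the outer ends of each locus, and clusters were not assigned to exons, introns or poison exons.

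Each cluster carries the authors' log2 fold of IP over input and their −log10 p for that fold. Clusters are called enriched here when the log2 fold is at least 3 and the −log10 p is at least 3. Read counts were worked back from the stepwise values of both columns for 76 of the 77 member clusters with a fold above 0. The IP held 2.03 times the reads of the input on this reckoning, so a log2 fold of 0 stands for about that ratio. For a fold, the interval in brackets is the 95% Clopper-Pearson interval of the recovered reads, and for a share it is the 95% Wilson interval. Both cover counting error only. Member clusters with recovered reads held a median of 18 IP reads (quartiles 7.75 and 33.2). The median was 7 (quartiles 4 and 19) over all clusters with recovered reads. These are 76 of 122 member clusters and 90032 of all 123349, since clusters with a fold at or below 0 have no recovered reads. At 1 input read, 24 IP reads were the fewest that could give an enriched cluster.

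The labelled cell type was checked through its markers. Of 9 progenitor markers, 8 had a cluster, the exception being Hes1, as did 4 of 5 neuronal, 3 of 4 astrocyte and 2 of 4 oligodendrocyte markers. For microglia, blood, vessels and fibroblasts, 0 of 11 markers had one. Among the markers with a cluster, an enriched one was found for 6 of 8 progenitor and 2 of 4 neuronal genes. The same held for 3 of 3 astrocyte and 2 of 2 oligodendrocyte genes. Of all 9846 genes with a cluster, 33.7% had an enriched one, and the few markers were not tested against that share. The highest log2 fold among the markers, 6.87, was in the astrocyte gene Gja1. Markers of several neural cell types were therefore bound, and their part in the results below was not tested. A marker without a cluster may still be expressed, and in bulk cultures fewer cells of a type cannot be told apart from less RNA per cell.

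UPF1 was enriched on 4 of the 10 genes, namely Srsf2, Srsf11, Srsf1 and Srsf4. This is 40% (interval 16.8 to 68.7), where 33.7% of all 9846 genes with a cluster, 34.8% of protein-coding genes, and 43.3% of 2975 protein-coding genes with as many clusters and as long a locus had an enriched cluster. The share of genes was thus near each of these backgrounds. The last set holds genes with 3 to 27 clusters and a locus of 3779 to 28196 nt, the ranges of the members. It was not matched gene by gene, and its genes had a median of 6 clusters, against 9 for the members. By cluster, 9 of 122 were enriched, 7.38% (interval 3.93 to 13.4), against 11.6% of all clusters and 25.1% (interval 24.6 to 25.7) of the 20531 clusters in the protein-coding genes with as many clusters and as long a locus. By cluster the members thus lay below this set, which is not matched to them in position. Within 5000 nt of the 3′ end lay 54.1% of the member clusters, against 70.5% of the clusters in that set. The median distance to the 3′ end was 4671 nt for member clusters and 2052.5 nt for those of the set. How far position accounts for the gap was not tested. The highest log2 fold of a gene had a median of 3.33 over the 10 genes, against 2.56 over all genes with a cluster and 3.06 over the protein-coding genes with as many clusters and as long a locus. All 9 enriched clusters were in Srsf genes, while Tra2a and Tra2b had 0 of 42 (interval up to 8.38%) and the Srsf genes 9 of 80 (11.2%, interval 6.03 to 20.02). These intervals overlap and treat clusters of 1 gene as independent. By gene, 4 of the 8 Srsf genes and 0 of the 2 Tra2 genes had an enriched cluster. Within 5000 nt of the 3′ end lay 35.7% of the Tra2 clusters and 63.75% of the Srsf clusters, so no family difference is read from these counts.

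**Figure D1:**
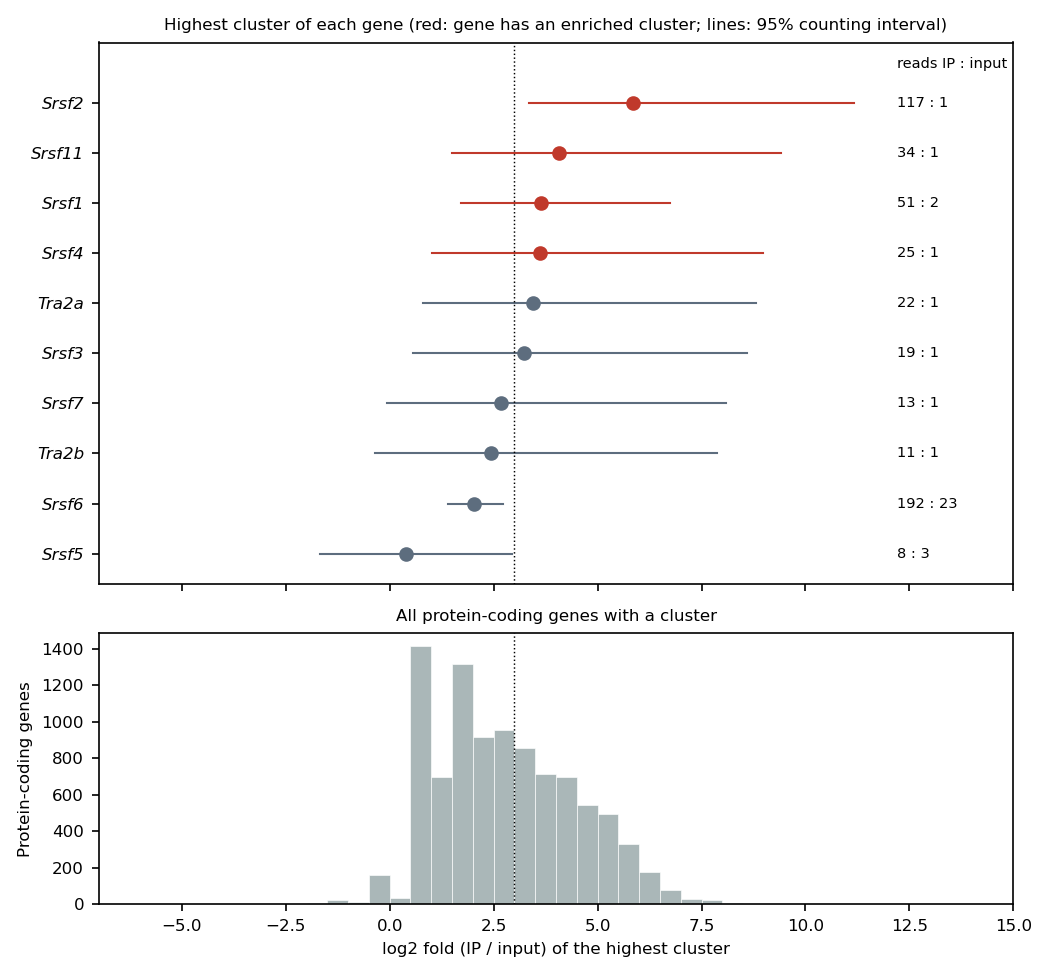
The upper panel gives the log2 fold of IP over input of the highest cluster in each of the 10 genes with its 95% counting interval and its reads, and the lower panel counts all protein-coding genes by their highest cluster. Srsf2 stands highest at 5.85 and Srsf5 lowest at 0.39, and the dotted line marks a log2 fold of 3.

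In order of their highest log2 fold the genes were Srsf2 (5.85), Srsf11 (4.06), Srsf1 (3.65), Srsf4 (3.62), Tra2a (3.44), Srsf3 (3.22), Srsf7 (2.68), Tra2b (2.44), Srsf6 (2.04) and Srsf5 (0.39). The intervals of each pair of neighbours in this order overlap, and no pair was tested. Each interval belongs to the chosen cluster and does not cover the choice of the highest among the 3 to 27 clusters of a gene. The interval of Srsf2 (3.34 to 11.16) lay above those of Srsf6 (1.41 to 2.73) and Srsf5 (-1.67 to 2.94) and overlapped the other 7. Only Srsf2 had a lower bound above 3.

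Srsf2 (SC35, an SR protein of nuclear speckles; chromosome 11, 116849897 to 116853675, minus strand) is known to regulate itself by alternative splicing in its 3′ untranslated region. It had 3 clusters, all within 1000 nt of the 3′ end of the locus. The middle one, 167 nt wide at 116850236 to 116850402, held 117 IP reads and 1 input read, a log2 fold of 5.85 with a −log10 p of 18.46. Its neighbours held 17 reads against 2 on the 3′ side (2.06) and 19 against 3 on the 5′ side (1.64), and neither was enriched. The enriched stretch of this gene was therefore a single one, centred 422 nt from the 3′ end, and 95.9% of all genes had a lower highest fold. An input count of 1 may also stand for no read at all, and without clusters of that count the highest fold of Srsf2 was 2.06 and the gene was not called.

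Srsf11 (p54, an SR-related protein that contacts the U2AF splice site factor; chromosome 3, 158010915 to 158036667, minus strand) had the most enriched clusters of the 10 genes, 4 of 20. They lay 131, 287.5, 398.5 and 770.5 nt from the 3′ end, and were the only clusters of the gene in its last 1000 nt. Those at 287.5 and 398.5 nt touch without a gap, so the count of 4 depends on how the list divides that stretch. In that order they held 27, 34, 91 and 57 IP reads against 1, 1, 3 and 2 input reads, and log2 folds of 3.73, 4.06, 3.90 and 3.81. The values lie close together, and their intervals, with lower bounds of 1.13 to 2.31 and upper bounds of 6.20 to 9.41, overlap. The 16 clusters further inside the gene had a median log2 fold of 0.13 and reached at most 1.56. One of these held 33 reads against 15 at 11092.5 nt from the 3′ end, an IP count within the range of the enriched ones. It was the only one of the 16 with at least 24 recovered IP reads, the fewest that could give a call. Its log2 fold of 0.11 (interval -0.81 to 1.10) lay below the lower bounds of all 4 enriched clusters, the lowest of which was 1.13. Enriched binding was thus found at the 3′ end of Srsf11, and no cluster along the rest of its 25753 nt was called.

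Srsf1 (SF2/ASF, the founding SR protein, which activates splice sites and shuttles to the cytoplasm; chromosome 11, 88046499 to 88053757, plus strand) showed another layout. Its 9 clusters lay 2350 to 5231 nt from the 3′ end, and none lay in the last 2000 nt of the annotated locus. The 3 enriched ones were centred 2567, 2772 and 3413.5 nt from that end, with 51, 53 and 72 IP reads against 2, 3 and 3 input reads. Their log2 folds were 3.65, 3.12 and 3.56, with −log10 p of 6.37, 5.96 and 8.85. Clusters between and on the 3′ side of them held 50 reads against 10 (1.30), 28 against 6 (1.20) and 43 against 9 (1.23), more input at fewer IP reads. On the 5′ side, a pair of clusters 3933.5 and 4029.5 nt from the 3′ end had folds of 2.30 (20 reads against 2) and 2.39 (−log10 p of 2.77, reads not recovered), under both thresholds. Enriched and other clusters were therefore interspersed over 948 nt, although their intervals overlap. The cluster farthest from the 3′ end held 52 reads against 24, a log2 fold of 0.09 (interval -0.63 to 0.85), which lies below the lower bounds of the 3 enriched clusters (1.49 to 1.96). None of the 3 was called with a fold threshold of 4.

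Srsf4 (SRp75, an SR protein with a long arginine-serine domain; chromosome 4, 131873530 to 131901725, plus strand) had 1 of 20 clusters enriched. This cluster, 183 nt wide and 418 nt from the 3′ end, held 25 IP reads and 1 input read, a log2 fold of 3.62 (interval 1.01 to 8.98) with a −log10 p of 3.23. It passed the read minimum by 1 read. A second cluster, 83 nt from the end, held 10 reads against 1 (2.30), and the 17 clusters beyond 1000 nt had folds between -1.44 and 1.30. The 3′ end of Srsf4 overlaps Gm12992, a long non-coding RNA gene on the other strand, and Srsf4 was not called from clusters in no other locus, with a −log10 p threshold of 5, or without clusters of 1 input read.

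**Figure D2:**
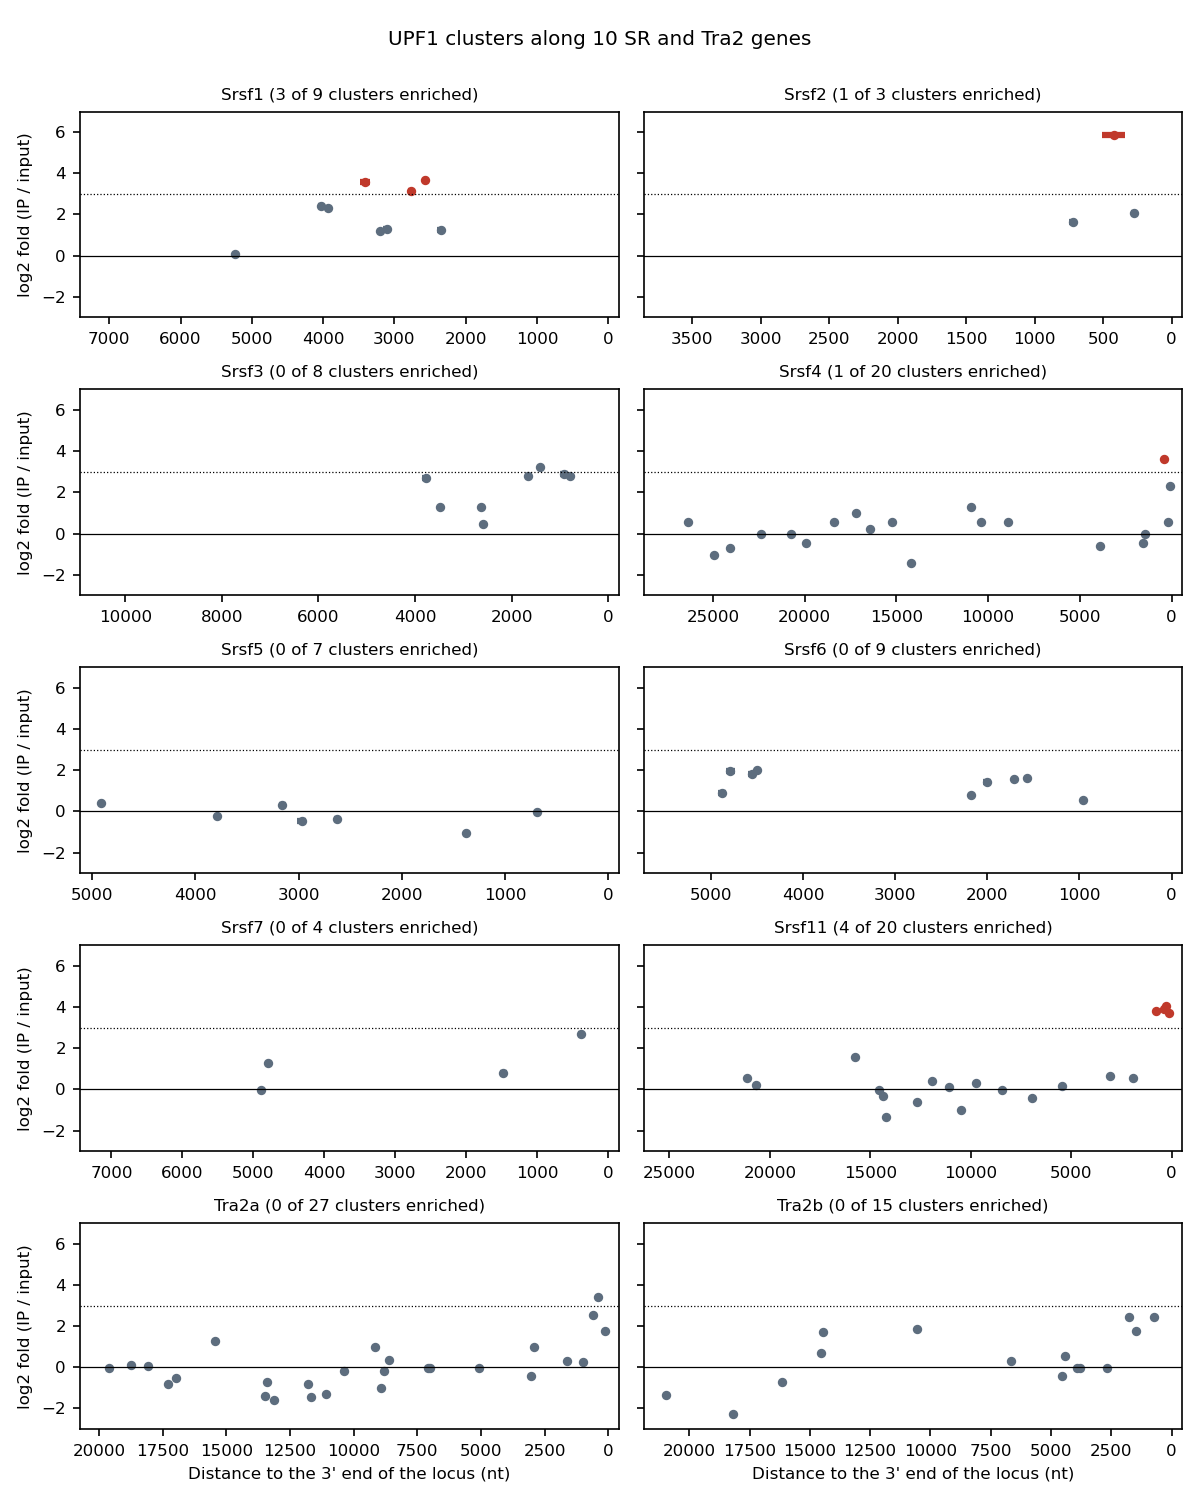
Each panel shows 1 gene with its 3′ end on the right, and each point is a cluster at its distance to the 3′ end of the locus (nt, horizontal axis) and its log2 fold of IP over input (vertical axis), with a bar for its width. Red points are the 9 enriched clusters, the dotted line is a log2 fold of 3, and the enriched clusters lie 131 to 3414 nt from the 3′ end.

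The other 6 genes had no enriched cluster, but they fell short in different ways. Srsf3 (the smallest SR protein, an adaptor for mRNA export; chromosome 17, 29032660 to 29043372, plus strand) came closest. Of its 8 clusters, 4 with 28 to 92 IP reads had log2 folds of 2.68 to 2.91, just under the threshold, and 3 of these passed the −log10 p of 3. The deepest, 912 nt from the 3′ end, held 92 reads against 6, with a log2 fold of 2.91 (interval 1.74 to 4.40) and a −log10 p of 7.53. The only cluster above 3 held 19 reads against 1 (3.22) and had a −log10 p of 2.16. All 8 clusters had a fold above 0, and their median of 2.73 was the highest of the 10 genes. With a fold threshold of 2 the gene had 3 enriched clusters, so its absence from the called genes rests on the threshold.

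Srsf7 (9G8, an export adaptor like Srsf3; chromosome 17, 80200080 to 80207369, minus strand) had only 4 clusters and at most 13 reads in any whose reads were recovered. Its highest lay 385.5 nt from the 3′ end, with 13 reads against 1 and a log2 fold of 2.68 (interval -0.06 to 8.09). No cluster with recovered reads reached the 24 IP reads needed for a call at 1 input read, and IP reads are themselves part of the fold.

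Srsf6 (SRp55, with a pair of RNA recognition motifs; chromosome 2, 162931508 to 162937121, plus strand) had the deepest clusters with recovered reads of the 10 genes. Summed over its 9 clusters there were 764 reads in the IP and 123 in the input. Of these reads, 646 and 98 fell in 4 clusters within 444 nt (162932204 to 162932647), whose centres lay 737 to 1117.5 nt from the 5′ end of the locus. These clusters touch in pairs, and whether a read across a shared border counts in both is not known. The 4 had 192 reads against 23, 227 against 32, 125 against 16 and 102 against 27, and log2 folds of 2.04, 1.80, 1.94 and 0.89. Srsf6 was thus above input with −log10 p of up to 11.56, yet by a moderate fold: the upper bounds of the first 3 were 2.73, 2.38 and 2.79, below the threshold of 3. The 5 clusters nearer the 3′ end had folds of 0.56 to 1.64, so the deepest and highest clusters of Srsf6 lay in its 5′ part. With a fold threshold of 2, its highest cluster was called.

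Srsf5 (SRp40; chromosome 12, 80945495 to 80950507, plus strand) was level with the input. Its 7 clusters had log2 folds of -1.02 to 0.39 with a median of -0.22, and the deepest with recovered reads held 28 reads against 11 (0.32, interval -0.73 to 1.48). Of all genes with a cluster, 3.06% had a lower highest fold. It was the only one of the 10 genes with no cluster at a log2 fold of 2 or higher.

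Tra2a and Tra2b, the transformer-2 proteins, are SR-like activators that bind purine-rich enhancers. Tra2a (chromosome 6, 49243921 to 49264248, minus strand) had the most clusters of the 10 genes, 27, of which 16 had a fold at or below 0. Its best lay 390.5 nt from the 3′ end, with 22 reads against 1 and a log2 fold of 3.44 (interval 0.81 to 8.80). At a −log10 p of 2.79 it missed the second threshold, and it was called when that threshold was dropped. The neighbours 596.5 and 118.5 nt from the end reached 2.56 and 1.78, while the 23 clusters beyond 1000 nt had a median of -0.19 and reached at most 1.30. The deepest cluster of the gene with recovered reads, 60 reads against 28 at 18072.5 nt from the 3′ end, had a log2 fold of 0.08 (interval -0.59 to 0.78).

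Tra2b (chromosome 16, 22244552 to 22266005, minus strand) had 15 clusters with the same tilt. The 3 in the last 2000 nt had log2 folds of 2.44, 1.78 and 2.44, the last from 33 reads against 3 with a −log10 p of 2.97. The other 12 had a median of -0.02. Among them, 2 clusters 10548.5 and 14462.5 nt from the 3′ end reached 1.88 (15 reads against 2) and 1.73 (27 against 4), and the lowest of all 122 member clusters, at -2.25, lay 18171 nt from it. For folds at or below 0 the authors list a −log10 p of 0, so depletion carries no test.

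**Figure D3:**
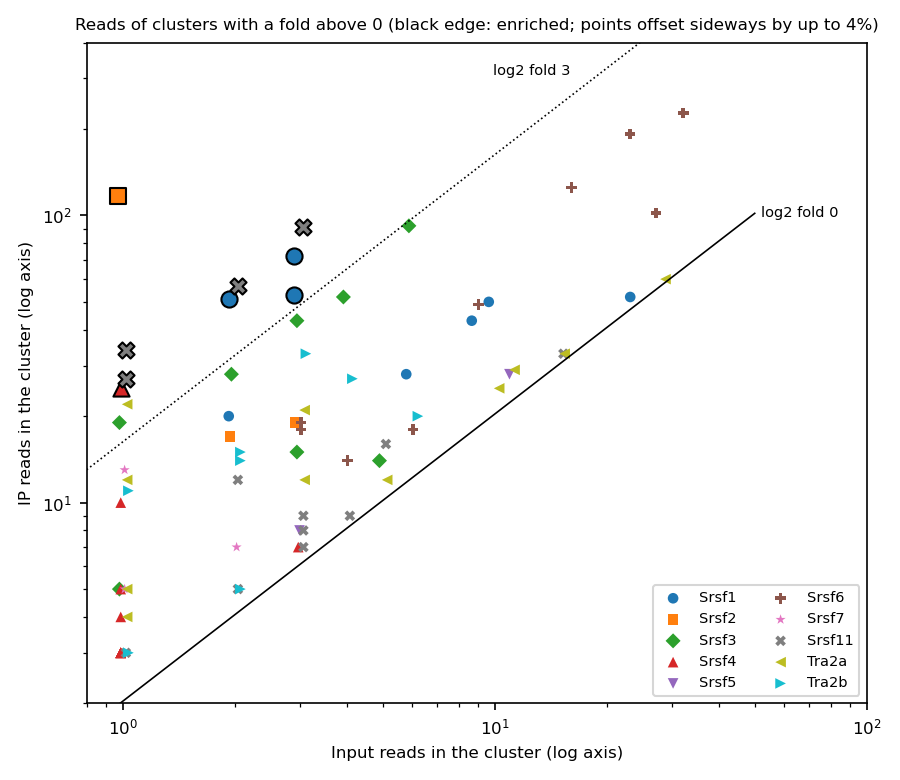
Points are the 76 member clusters with recovered reads, with IP reads on the vertical and input reads on the horizontal axis (both log scales), and a black edge marks the 9 enriched ones. The enriched clusters hold 25 to 117 IP reads and at most 3 input reads, while the deep clusters of Srsf6 and Tra2a lie to the right, at input counts of up to 32 and 28.

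Depth alone did not separate enriched from other member clusters. Of the 24 member clusters with at least 24 IP reads within 5000 nt of a 3′ end, 9 were enriched (37.5%, interval 21.2 to 57.3), against 84.1% of 15078 such clusters in all protein-coding genes (interval 83.5 to 84.7). These member clusters held a median of 50.5 IP reads and 3.5 input reads, against 56 IP reads and 2 input reads for all protein-coding genes. The 15 that were not enriched came from Srsf6 (5), Srsf3 (4), Srsf1 (3) and, with 1 each, Srsf5, Tra2a and Tra2b. Beyond 5000 nt, 0 of 6 from 4 genes were enriched (interval up to 39.0%), against 30.1% of 3878, a background inside that interval. IP reads are part of the fold, the depth limit was chosen after values had been seen, clusters of 1 gene are not independent, and clusters with a fold at or below 0 have no recovered reads and are left out of both sides. By −log10 p alone, 15 of the 122 member clusters reached 3, against 13.2% of all clusters. Of these 15, 6 missed the fold threshold, 3 in Srsf3 and 3 in Srsf6. A fold above 0 was found for 77 member clusters, 63.1%, against 73.2% of all clusters and 87.9% of those in protein-coding genes within the cluster and length ranges of the members. The clusters of that last set lay nearer to 3′ ends, and it was not matched in position.

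By position, 6 of the 9 enriched member clusters lay in the last 1000 nt, and the 3 of Srsf1 lay further inside. All 9 lay within 5000 nt of the 3′ end (interval 70.1 to 100), as did 57 of the 113 that were not enriched (50.4%, interval 41.4 to 59.5), in a window that spans the whole of Srsf2 and most of Srsf5 and Srsf6. Over all protein-coding genes the shares were 91.6% of 14090 enriched and 23.2% of 106002 other clusters. In the last 1000 nt, 6 of 20 member clusters were enriched (30%, interval 14.5 to 51.9), against 36.0% in all protein-coding genes, and their median log2 fold was 2.62, against 2.68. The members thus lay near the background there. Between 1000 and 2000 nt the members had 0 of 12 enriched (interval up to 24.2%), against 40.3%, and between 2000 and 5000 nt 3 of 34 were, all in Srsf1 (8.82%, interval 3.05 to 23.0), against 28.1%. Their median folds were 1.17 and 0.93, against 2.83 and 2.06. Beyond 5000 nt the members had 0 of 56 enriched (interval up to 6.42%) and a highest fold of 1.88, against 1.43% enriched of 82586, a background inside that interval. Distances include introns, and these intervals treat clusters as independent.

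**Figure D4:**
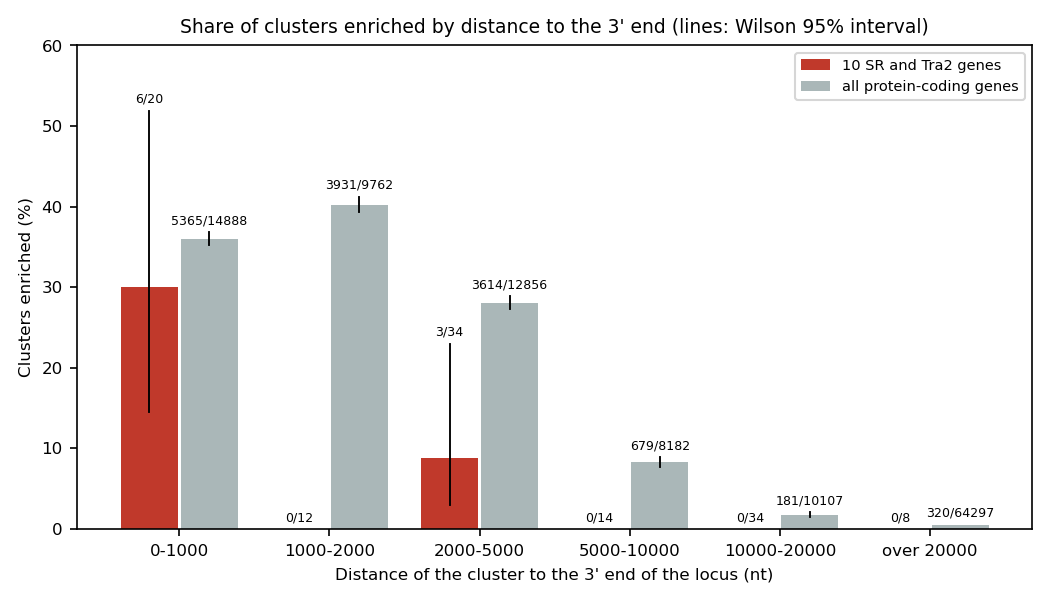
Bars give the share of clusters enriched (percent) by distance to the 3′ end of the locus for the 10 genes (red) and for all protein-coding genes (grey), with the counts above and Wilson 95% intervals as lines. The bars are of like height in the last 1000 nt, at 30% and 36.0%, and the members have no enriched cluster in 4 of the 6 classes.

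Both ends of the loci were also inspected. No cluster on the strand of the gene lay within 10000 nt downstream of any of the 10 annotated 3′ ends. None overlapped any of the 13 RefSeq promoter windows of these genes, which run from 250 bases before to 50 after each start. The cluster nearest to a 5′ end was that of Srsf5, with its centre at 100 nt and a log2 fold of 0.39. On the opposite strand, the 10 loci held 1 cluster in all, in the stretch that Srsf2 shares with Mfsd11.

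A further 3 lists of genes that work with SR proteins were set beside the members. Of 16 other SR and SR-related genes with a cluster, 5 (31.2%) had an enriched one, and the median highest log2 fold was 2.56. Acin1 and Rnps1, which form a splicing-associated complex on mRNA, reached 5.93 (interval 3.43 to 11.25) and 4.47, and Scaf11, an SR-related factor, 4.53. Rbm39, a U2AF-related protein, had 37 clusters and no enriched one, with a highest fold of 2.22, and Pnisr and Scaf8 had 26 each, with 2.44 and 2.15. No test between lists was made.

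Of 10 genes for the kinases and the importer of SR proteins, 3 (30%) had an enriched cluster, and the median was 2.04. Srpk2, a kinase of arginine-serine domains, reached 5.70 (interval 3.83 to 8.75) with 6 of 39 clusters enriched, Dyrk1a, a kinase of nuclear speckles, 5.62, and Tnpo3, the importin of SR proteins, 5.02. The nuclear SR kinases Clk1 and Clk4 had 19 and 16 clusters and none enriched, with highest folds of 1.78 and 2.44. Of 13 genes for factors of the U1 and U2 steps, 3 (23.1%) had an enriched cluster, and the median was 2.71. Sf1, the branch point binding protein, reached 5.87 (interval 4.002 to 8.92) with 8 of 16 clusters enriched, U2af2, the large subunit of U2AF, 3.88, and Luc7l2, a U1-associated protein, 3.40. Luc7l and Sf3b1, a core protein of the U2 particle, had 23 and 21 clusters and none enriched, with highest folds of 2.98 and 2.71. All 3 shares were below the 33.7% of all genes, but they rest on 5 of 16, 3 of 10 and 3 of 13 genes. With so few genes and no test against all genes, no shortfall is read from these shares. Their medians lay on both sides of the 2.56 of all genes.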

How the data were processed

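The authors deposited 1 list of stranded UPF1 clusters without a header. Per the submitters' processing notes, UMI-tools, cutadapt, STAR and build mm10 were used. Neither the cluster caller nor the fold formula is given in the sources used here. Its log2 fold of IP over input and its −log10 p, both deposited by the authors, were identified from their values. The −log10 p is capped at 400 and is 0 wherever the fold does not exceed 0 (32999 clusters). Replicates and library totals are not part of it, and depth is known only through recovered reads.

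Clusters were matched to RefSeq GRCm38.p6 loci by at least 1 base on the locus strand, taken from the RefSeq promoter table for 27025 loci and, for 1613, from at least 80% of 2 or more clusters lying in no other locus. This covered 121419 clusters, and a cluster in 2 loci of a strand counts in both. All 10 genes matched by symbol. Distances run from cluster midpoints to the outer end of the locus.

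Reads were recovered by taking the commonest fold as 3 IP reads against 1 input read (log2 scale -1.02). Whole counts were then sought that give the fold and come closest to the −log10 p, within 0.05 or 1%. That p was computed by an exact binomial test (under 5 reads on a side) or a continuity-corrected chi-square test. This gave counts for 90032 of 90350 clusters with a fold above 0 (99.6%). Input counts under 1 were not tried. The procedure was run on simulated counts made with the same scale and p formulas. Such a run checks only that the counts are worked back, and cannot test the assumed scale, the p formulas or the input counts of 1.

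The 10 genes and the gene lists were chosen with earlier results of these data known. All 10 genes are named; of each list, the 3 highest genes called and the 2 with the most clusters among those not called, ties included. No sequences are printed, as no genome was used here. Alternatives covered both thresholds, input counts of 1, overlap, narrow clusters and the value that stands for a gene. Python 3.11.15, pandas 2.3.3, NumPy 2.4.6, SciPy 1.17.1 and matplotlib 3.10.9 were used.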

Additional observations from a re-analysis of the deposited data

How the results depend on the processing

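With a log2 fold threshold of 4, 2 member clusters in 2 of the 10 genes were called, against 24.2% of all genes and 7.23% of all clusters (8916). With clusters of 1 input read left uncalled, 5 member clusters in 2 of the 10 genes (Srsf1 and Srsf11) were called. Of all genes 21.5% (2115) and of all clusters 5.62% (6927) were called at that setting, and the median highest log2 fold of the members was 2.05. The called genes numbered 6 with a fold threshold of 2 (Srsf3 and Srsf6 joined) and 6 without a p threshold (Srsf3 and Tra2a joined), against 35.9% and 40.3% of all genes at those settings. They numbered 3 with a −log10 p of at least 5 or in no other locus (both without Srsf4), against 25.9% and 33.1% of all genes. A width-weighted mean or summed recovered reads per gene gave medians of 1.27 and 1.62, since inner clusters then count. Whole inclusion in the locus or a minimum width of 20 nt changed no member call. Chosen after seeing the data, a limit of 50 IP reads left 46.2% of 13 deep member clusters near 3′ ends enriched, against 92.6% of 8537, and leaving out Srsf6 left 47.4% of 19. No paired analysis was possible because there is 1 IP and 1 input. Under the thresholds used, a cluster with fewer than 24 IP reads cannot be called.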
